A study of Mus musculus with 9 samples.

Results

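Rpl39l and the pairs that ribosomal protein genes form with a "-like" paralog were followed in 9 lines of mouse embryonic stem cells (mESC), each derived from a blastocyst and read on 1 Affymetrix Mouse Gene array. The 10 genes listed were Rpl39l and Rpl39, Rpl22l1 and Rpl22, Rpl10l and Rpl10, Rpl3l and Rpl3, and Rpl7l1 and Rpl7. Members were the transcript clusters, the array's probe sets for 1 transcript each, whose annotation gives 1 of these symbols alone. The rule found 15 clusters for 7 genes out of 23410 clusters with a gene. The other 3 genes, Rpl39, Rpl22l1 and Rpl3, were represented only by 11 clusters that also carry another symbol, and their values are given as shared. Rpl39l was chosen by earlier results of these arrays, namely its rank product in mESCWM against mESCKAA and its high level in line FB2, so its levels are described without a test. The other genes were added for their kinship, not for their values.

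The study asked whether the conditions of embryo culture leave a trace in stem cells derived afterwards. The 3 mESCWM lines (WM1 to WM3) came from embryos fertilized in vitro and cultured in Whitten's medium at 20% O2, and the 3 mESCKAA lines (KAA1 to KAA3) from embryos fertilized in vitro and cultured in KSOM with amino acids at 5% O2. The 3 control lines, mESCFB (FB1 to FB3), were derived from blastocysts that were conceived by natural mating and flushed from the uterus. All were of the C57BL/6 strain, labelled female, derived on feeder fibroblasts with LIF and 2 kinase inhibitors, grown off feeders in the last passages and taken at the eighth passage. Each line goes back to 1 blastocyst, so a difference between lines holds whatever the embryo and its derivation brought along.

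Ribosomal proteins are made in near-equal amounts from highly expressed genes, and most have a single active gene. A few have a second, diverged gene whose product can take the place of the parent's protein in the large subunit. The protein of Rpl39 lines the exit tunnel through which the growing chain leaves the ribosome, and that of Rpl39l is its close relative, best known from the male germ line and also found in mouse embryonic stem cells. Rpl39 and Rpl10 lie on the X chromosome, and Rpl10l is known in mice for taking over from Rpl10 in spermatocytes, where the X chromosome is silent. Rpl3l is known from heart and skeletal muscle. The protein of Rpl22 binds the RNA of Rpl22l1 and holds it down in mouse cells, and the product of Rpl7l1 is known in human cells as a factor of large subunit assembly.

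The sequences before the start sites of Rpl39l and Rpl39 are shown because these 2 genes differed most in how far they moved between lines, and those of Rpl10l and Rpl10 because they form the other pair with an X-linked parent. Each is the 250 bases upstream of the RefSeq start in build GRCm38.p6, read 5′ to 3′ on the gene's strand, with every CCGGAA (or TTCCGG, the same on the other strand), a core of sites for ETS-family factors, in capitals. They lie at chr16:10169978-10170227 on the plus strand (Rpl39l), chrX:37085223-37085472 on the minus strand (Rpl39), chr12:66284402-66284651 on the minus strand (Rpl10l) and chrX:74270566-74270815 on the plus strand (Rpl10).
Rpl39l: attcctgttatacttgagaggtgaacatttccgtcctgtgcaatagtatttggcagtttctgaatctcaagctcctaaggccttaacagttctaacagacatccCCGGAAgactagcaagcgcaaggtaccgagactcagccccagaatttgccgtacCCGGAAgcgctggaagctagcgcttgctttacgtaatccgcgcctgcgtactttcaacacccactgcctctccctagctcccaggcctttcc
Rpl39: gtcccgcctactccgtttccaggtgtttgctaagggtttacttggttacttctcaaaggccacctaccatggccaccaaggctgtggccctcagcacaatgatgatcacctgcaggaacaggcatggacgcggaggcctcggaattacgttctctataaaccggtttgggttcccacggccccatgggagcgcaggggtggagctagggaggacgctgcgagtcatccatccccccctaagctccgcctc
Rpl10l: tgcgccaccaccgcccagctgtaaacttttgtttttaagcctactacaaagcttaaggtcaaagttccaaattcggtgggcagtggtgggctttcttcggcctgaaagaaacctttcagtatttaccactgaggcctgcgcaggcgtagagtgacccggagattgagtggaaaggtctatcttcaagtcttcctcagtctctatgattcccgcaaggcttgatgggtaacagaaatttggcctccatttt
Rpl10: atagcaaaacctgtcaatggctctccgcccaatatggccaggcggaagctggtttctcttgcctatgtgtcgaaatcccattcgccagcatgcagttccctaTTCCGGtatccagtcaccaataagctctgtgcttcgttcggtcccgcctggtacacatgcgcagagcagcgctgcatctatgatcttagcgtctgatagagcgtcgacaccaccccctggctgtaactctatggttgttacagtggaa
The Rpl39l window held 2 such matches, which do not overlap, and the Rpl10 window 1. Those of Rpl39 and Rpl10l held 0. Of 32841 windows of the same length before annotated starts, 12.0% held at least 1 match and 2.49% held 2 or more. TATAAA, on either strand, was found once before Rpl39 and not before Rpl39l, Rpl10l or Rpl10, against 12.4% of all windows. The CpG count was 12 before Rpl39l and 12 before Rpl39, 8 before Rpl10l and 13 before Rpl10, with a median of 6 over all windows. A promoter was listed for 8 of the 10 genes, with Rpl3 and Rpl7 missing, and among the others Rpl7l1 held 1 CCGGAA match and Rpl22l1, Rpl22 and Rpl3l held 0. The arrays did not measure binding, and a match is a run of letters only.

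Values are log2 levels, so that 1 unit is a doubling, and the tests below measure the spread between lines. The lines carried stem cell transcripts, with all 12 listed markers of mESC measured and line means of these markers between 8.01 and 8.56. Markers of feeder fibroblasts averaged 5.17 to 5.39 in mESCWM lines, 5.09 to 5.24 in mESCKAA lines and 5.02 to 5.06 in mESCFB lines. In mESCWM minus mESCFB, 17 of 20 lay above 0, beside 51.6% of all genes, and limma called 0. The smallest p belonged to Acta2, Bgn and Vim (limma adjusted p = 0.685, 0.808 and 0.808). The defining collagen Col1a1 lay between 4.59 and 5.32 in the 9 lines and Postn between 2.21 and 2.43. Signal for the Y-linked gene Eif2s3y was 5.19 in WM3, 3.72 in KAA2 and 4.78 in FB1, against 1.77 to 2.20 in the other lines, although the labels give all lines as female. The Y-linked gene Uty was highest in the same lines, between 2.62 in FB1 and 4.42 in WM3, against 1.77 to 2.11 in the others. Kdm5d did not share this, with 2.04 in WM3, 1.96 in KAA2 and 2.04 in FB1 and its highest value, 2.46, in WM2. X-linked genes stood 0.29 above autosomal ones in FB2 and 0.14 in FB3, taken as the median deviation from each gene's mean over the lines, and between -0.10 and -0.01 in the other lines.

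Rpl39l was the most variable of the 10 genes. Its level was 6.35, 6.64 and 7.06 in WM1, WM2 and WM3, then 4.06, 5.25 and 4.83 in KAA1, KAA2 and KAA3, and 4.19, 8.40 and 5.72 in FB1, FB2 and FB3. All 3 mESCWM lines were above all 3 mESCKAA lines, while the mESCFB lines reached from near the bottom of the mESCKAA range to well above the mESCWM range. The means were 6.69 ± 0.36 in mESCWM, 4.71 ± 0.60 in mESCKAA and 6.10 ± 2.13 in mESCFB (SD, n = 3 each). The difference of mESCWM from mESCKAA was 1.97 (SE 0.88), or 3.93-fold. Each SE comes from the limma fit, which pools the spread within all 3 groups, so the wide spread of the mESCFB lines enters it. Within the control group alone, FB2 stood 18.5-fold above FB1, a gap between 2 single lines and not between means. The SD of the control lines, all of 1 strain, was 2.13, and the largest difference between group means was 1.97. FB1 and KAA1, at 4.19 and 4.06, lay below the median of all tested clusters, 4.64 to 4.70 per array. Such levels do not show that the gene was transcribed, so fold values over these lines are uncertain. In RNA from whole cultures, a change in the number of cells with a transcript and a change in its amount per cell cannot be told apart. With an SD of 2.13, the mESCFB mean had no firm place in the order of the groups. The difference of mESCKAA from mESCFB was -1.39 (SE 0.88), -2.35 without FB1 and -0.24 without FB2, with 2 controls left in each case. The difference of mESCWM from mESCFB was 0.58 (SE 0.88) with all lines, 1.73 without FB2 and -0.38 without FB1. Without WM3, KAA2 and FB1, the lines with Eif2s3y signal, it was -0.56, while mESCKAA minus mESCFB was -2.62 and mESCWM minus mESCKAA 2.05. Feeder marker means also reached their highest values in mESCWM lines, while line FB2, with the most Rpl39l, had a feeder marker mean of 5.06, below all lines from in vitro fertilization. The part of feeder RNA in the group differences was not tested.

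**Figure D1:**
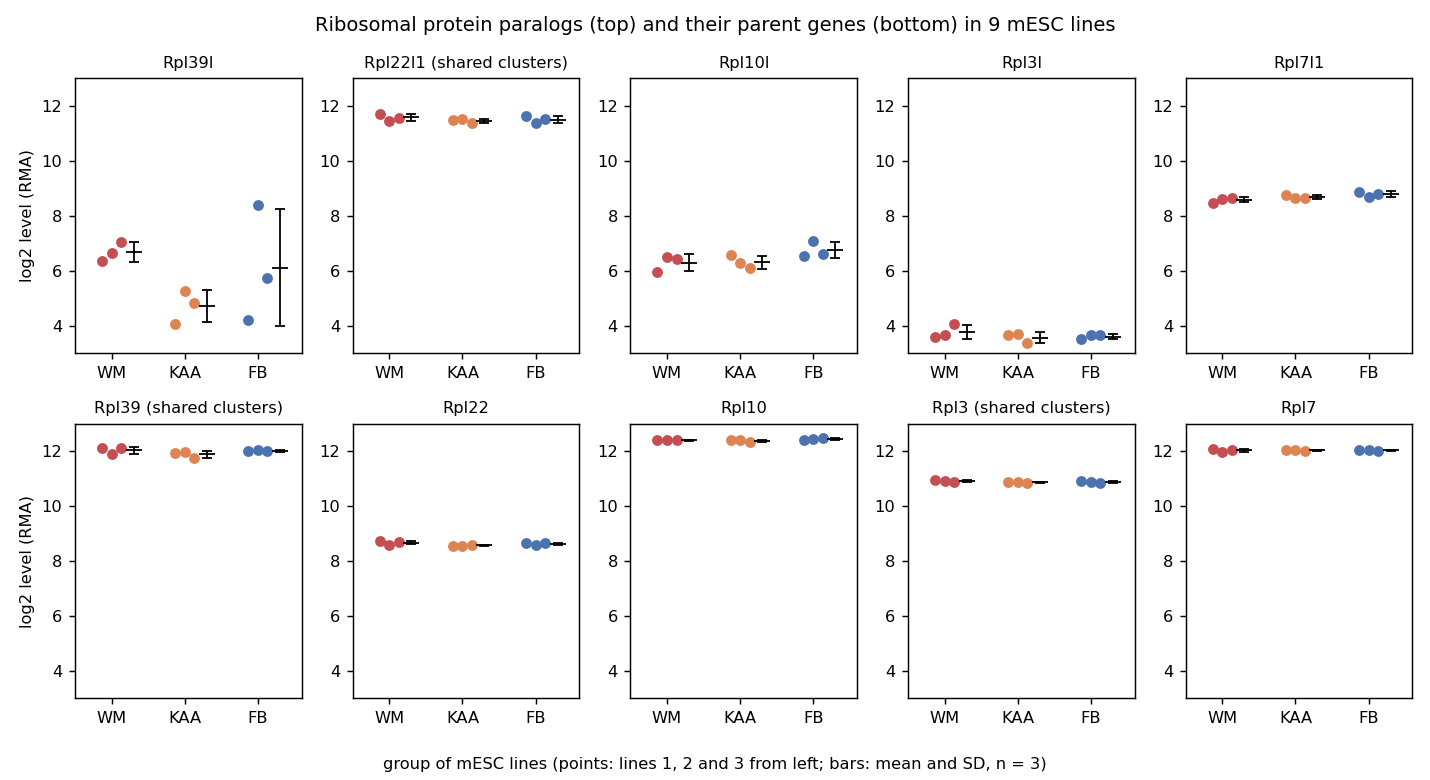
Log2 levels of the 5 paralogs (top row) and their parent genes (bottom row) in the mESCWM, mESCKAA and mESCFB lines, 1 point per line, with the group mean and SD (n = 3) as bars. Rpl39l runs from 4.06 in KAA1 to 8.40 in FB2, whereas each parent gene stays within a range of 0.36 over the 9 lines.

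Rpl39, the parent gene, varied far less between lines than Rpl39l. Through its 2 clusters, shared with Gm32211, it measured 12.11, 11.89 and 12.12 in WM1, WM2 and WM3, then 11.94, 11.99 and 11.76 in KAA1, KAA2 and KAA3, and 12.00, 12.06 and 12.00 in FB1, FB2 and FB3. Its lowest value was in KAA3. The 3 mESCKAA lines lay just below the 3 mESCFB lines, as in 3.7% of all clusters, and the groups overlapped in the other comparisons. The SD over the 9 lines was 0.11 for Rpl39 and 1.43 for Rpl39l. The whole range of Rpl39 amounted to 1.28-fold, that of Rpl39l to 20.2-fold over KAA1, whose level lay below the median of all tested clusters. In mESCWM minus mESCKAA, Rpl39l stood 1.97 higher and Rpl39 0.14 higher, so the difference between paralog and parent moved by 1.83. Line FB2, with the highest Rpl39l, had 12.06 for Rpl39, within the range of the other lines, although its X-linked genes as a whole were raised.

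Rpl10l, the autosomal relative of X-linked Rpl10, had lower values in mESCWM than in mESCFB lines, a difference that did not pass the test. Its level was 5.96, 6.49 and 6.44 in the mESCWM lines, 6.55, 6.26 and 6.09 in the mESCKAA lines and 6.53, 7.08 and 6.61 in the mESCFB lines. The 3 mESCWM lines were below the 3 mESCFB lines by a narrow gap, and FB2 was again the highest line. The difference of mESCWM from mESCFB was -0.44 (SE 0.20, limma adjusted p = 0.819), that of mESCKAA from mESCFB -0.44 (SE 0.20, limma adjusted p = 0.918), and that of mESCWM from mESCKAA -0.01 (SE 0.20). The parent Rpl10, which encodes a protein added late in large subunit assembly, was read by 6 clusters whose mean ran from 12.32 to 12.48 over the lines. Whether all 6 read the X-linked gene itself, and not copies of it elsewhere in the genome, was not examined. FB2 and FB3, the lines with raised X-linked levels, had the highest Rpl10 at 12.46 and 12.48, and whether these 2 observations are related was not tested. The paralog minus parent difference averaged -6.11 ± 0.31 in mESCWM and -5.71 ± 0.29 in mESCFB lines (SD, n = 3 each), and the groups did not overlap. The two-sided exact permutation test gave p = 0.1, the smallest that 3 against 3 lines allow, and p = 0.3 for mESCKAA against mESCFB and 0.9 for mESCWM against mESCKAA. The difference of -0.40 between mESCWM and mESCFB was -0.22 without WM1 and -0.24 without FB2, and after quantile normalization its exact permutation p was 0.4.

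Rpl7l1 also had lower values in mESCWM than in mESCFB lines, over a smaller range and without passing the adjusted threshold. It measured 8.47, 8.60 and 8.66 in the mESCWM lines, 8.77, 8.63 and 8.65 in the mESCKAA lines and 8.88, 8.69 and 8.80 in the mESCFB lines. All mESCWM lines were below all mESCFB lines, and the mESCKAA lines overlapped with both. The difference of mESCWM from mESCFB was -0.22 (SE 0.09), with an unadjusted p of 0.0321 and an adjusted p of 0.819 by limma. The parent Rpl7, a protein of the large subunit, was among the steadiest transcripts of the arrays, at a level where clusters vary little in general. Its clusters had SDs of 0.03, near the median of 0.04 for clusters with a mean between 12 and 13. Whether its 4 clusters all read Rpl7 itself, and not copies of it elsewhere in the genome, was not examined. The mean of the 4 clusters lay between 11.99 and 12.09 in every line, a 1.07-fold range. The paralog minus parent difference was therefore that of the paralog, -0.22 in mESCWM minus mESCFB with exact p = 0.1, again the smallest possible, and exact p = 0.2 and 0.4 for mESCKAA against mESCFB and for mESCWM against mESCKAA. It was -0.14 without WM1, and after quantile normalization its exact permutation p was 0.2.

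Rpl22l1 and Rpl22 differed little between groups. Rpl22l1, through 2 clusters shared with Gm15421, measured 11.72, 11.46 and 11.58 in the mESCWM lines, 11.49, 11.51 and 11.38 in the mESCKAA lines and 11.63, 11.37 and 11.51 in the mESCFB lines. The groups overlapped in all 3 comparisons. Rpl22 measured 8.72, 8.60 and 8.71 in the mESCWM lines, 8.57, 8.57 and 8.60 in the mESCKAA lines and 8.66, 8.59 and 8.66 in the mESCFB lines. Its mESCWM lines were just above its mESCKAA lines, with a difference of 0.10 (SE 0.07, limma adjusted p = 0.807). The paralog minus parent difference moved by 0.05 or less in each comparison, with exact p between 0.5 and 0.9. Both had their highest value in WM1.

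Rpl3l, the muscle form, measured 3.58, 3.64 and 4.06 in the mESCWM lines, 3.64, 3.70 and 3.35 in the mESCKAA lines and 3.51, 3.64 and 3.64 in the mESCFB lines. Only WM3 stood out, and the groups overlapped. These levels are below the median of all tested clusters, which was 4.64 to 4.70 per array, and do not show that the gene was transcribed. The list of 14 striated muscle genes averaged 4.60 to 4.89 per line. Of these, 11 lay above 0 in mESCWM minus mESCFB, beside 51.6% of all genes, and limma called 0. The smallest p in that comparison belonged to the actins Acta1, with a difference of 0.83 (SE 0.20, limma adjusted p = 0.736), and Actc1, with 0.82 (SE 0.26, limma adjusted p = 0.819). Acta1 measured 8.59, 8.44 and 8.84 in the mESCWM lines, and thus was highest in WM3 like Rpl3l, and whether the 2 are related was not tested. No other gene of this list peaked in WM3. Actc1, with 6.44, 6.48 and 5.99 in the mESCWM lines, was lowest of the 3 there. Rpl3, the parent, whose protein reaches into the catalytic centre of the large subunit, was read by 7 clusters shared with Gm5879, 2 of which carry further symbols. The other 5 averaged between 10.85 and 10.97 per line, and 2 of these 5 held identical values in all lines. In this average the mESCWM lines lay just above the mESCKAA lines, as in 4.03% of all clusters. The paralog minus parent difference did not separate the groups, with exact p between 0.6 and 0.8.

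**Figure D2:**
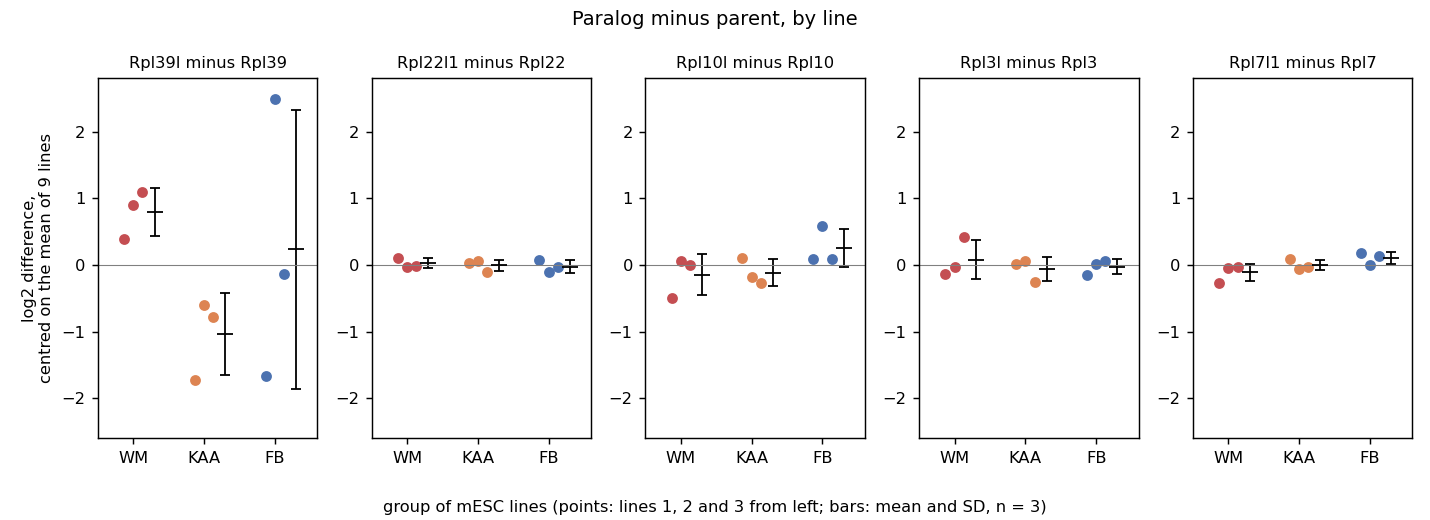
Log2 level of each paralog minus that of its parent in the mESCWM, mESCKAA and mESCFB lines, centred on the mean of the 9 lines, 1 point per line, with the group mean and SD (n = 3). The Rpl39l difference moves by 1.83 between mESCWM and mESCKAA lines, while the Rpl10l and Rpl7l1 differences lie 0.40 and 0.22 lower in mESCWM than in mESCFB lines.

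Counted over the 15 member clusters, limma called 0 in each of the 3 comparisons at an adjusted p under 0.05, as for all clusters, where 0% were called. At an unadjusted p under 0.05 the members held 0 in mESCKAA minus mESCFB, 1 (Rpl7l1) in mESCWM minus mESCFB and 0 in mESCWM minus mESCKAA, beside 4.81%, 5.89% and 6.29% of all clusters. Groups did not overlap, with mESCWM lower than mESCFB, for Rpl10l and Rpl7l1, beside 4.55% of all clusters in that direction, and with mESCWM higher than mESCKAA for Rpl39l and Rpl22, beside 4.03%. In the other 4 cases no member cluster separated the groups, against 3.58% of all clusters for mESCWM higher than mESCFB, 4.63% for mESCWM lower than mESCKAA, and 4.38% and 3.7% for mESCKAA higher and lower than mESCFB. Where members separated the groups, the count was 2 of 15 each time, and 10 of the 15 clusters belong to Rpl10 and Rpl7 alone. Rpl39l was chosen by the comparison of mESCWM with mESCKAA. By the rank product, the test named in the study's methods, which orders the clusters by their ranks over the 9 differences between lines of 2 groups, a percentage of false positives under 0.05 was met only by Rpl39l. It was met for mESCWM higher than mESCKAA, beside 0.303% of all clusters, and for mESCKAA lower than mESCFB, beside 0.103%. Since the first of these ranks was among the values that chose the gene, both are descriptions. The second was lost without FB2, FB3, KAA1 or KAA3, and without FB2 Rpl39l met the threshold for mESCWM higher than mESCFB instead. No member met it in the 4 remaining directions, beside 0.0256% for mESCWM lower than mESCKAA, 0.00854% and 0.103% for mESCWM higher and lower than mESCFB, and 0.0171% for mESCKAA higher than mESCFB.

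The paralogs with own clusters varied more between lines than the parents. The SD over the 9 lines was 1.43 for Rpl39l, 0.33 for Rpl10l, 0.19 for Rpl3l and 0.12 for Rpl7l1, against 0.03 to 0.05 for the 6 Rpl10 clusters, 0.03 for the 4 Rpl7 clusters and 0.06 for Rpl22. The median over all tested clusters was 0.16. The level in FB2 that helped to choose Rpl39l also makes its SD, so its place is a description. A larger SD than that of Rpl39l was found in 13 clusters (0.0555%), than that of Rpl10l in 8.27%, than that of Rpl3l in 38.0% and than that of Rpl7l1 in 70.7%. The spread depends on the signal. Clusters with a mean between 12 and 13 had a median SD of 0.04, and those between 6 and 7 one of 0.19, and the clusters of Rpl10 and most of those of Rpl7 lie in the first range. Beside clusters of its own level, Rpl39l lay far above the 95th percentile of 0.44, Rpl10l stood below the 95th percentile of 0.40, and Rpl7l1 lay below the median of 0.15. Of the shared Rpl39 clusters, the one between 12 and 13 had an SD of 0.12, above the 95th percentile of 0.09 there. The other, between 11 and 12, had 0.105, between the median of 0.07 and the 95th percentile of 0.17. The 55 ribosomal protein genes of both subunits with a cluster of their own, each read by its cluster with the highest mean, had SDs of 0.01 to 0.26. Their median SD was 0.04. Only Rpl12, Rpl30 and Rps15a exceeded 0.20.

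**Figure D3:**
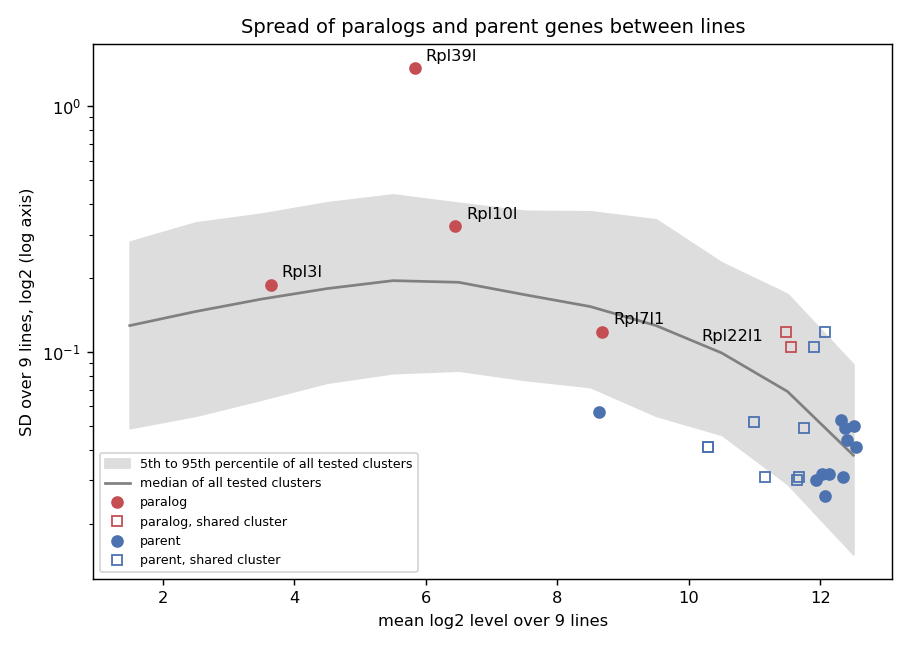
SD of the log2 level over the 9 lines (log axis) against the mean level for each cluster of the 10 genes, with filled circles for clusters of 1 symbol and open squares for shared clusters. The grey band spans the 5th to 95th percentile of all tested clusters by level, and Rpl39l, with an SD of 1.43, lies well above it.

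Paralog and parent were next compared across the 9 lines, with 5 relations computed and 4 of them tested. Rpl22l1 and Rpl22 rose and fell together most closely (Pearson's r = 0.77, exact permutation p = 0.0148, adjusted p = 0.0592 over the 4 relations; Spearman's rho = 0.67, exact permutation p = 0.0589, adjusted p = 0.236). The correlation did not pass the threshold after adjustment, and it was 0.53 without WM1 and WM3, the lines farthest from the median of Rpl22, and 0.72 after the group means were removed. Rpl10l and Rpl10 gave r = 0.58 (exact permutation p = 0.0986, rho = 0.57 with exact permutation p = 0.121), with 0.56 without FB3 and KAA3 and 0.28 after the group means were removed. Rpl39l and Rpl39 gave r = 0.49 and rho = 0.57, with r = 0.37 without KAA3 and WM3, as a description. Rpl3l and Rpl3 gave r = 0.03 (exact permutation p = 0.935) and Rpl7l1 and Rpl7 -0.24 (exact permutation p = 0.557), the last of which turned to 0.26 without WM1 and WM2. None of the 4 tested relations passed the adjusted threshold. Across lines, Rpl39l itself had r = 0.45 with Rpl3l, 0.41 with Rpl10l, 0.21 with Rpl22 and -0.44 with Rpl7l1, given as a description.

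The transcripts whose pattern was most like that of Rpl39l were sought among the 2033 clusters of 1 symbol with a range of at least 1 over the 9 lines, by Pearson's r. The 10 most alike held 9 clusters of Gm7982, a predicted gene, and 1 of Rtl1, an imprinted gene derived from a retrotransposon. Gm7982 has 17 clusters with 12 distinct profiles, and all had r between 0.90 and 0.98 with Rpl39l. The closest measured 3.07, 4.12 and 4.27 in the mESCWM lines, 1.64, 2.28 and 1.87 in the mESCKAA lines and 1.77, 5.04 and 2.88 in the mESCFB lines. It put the 9 lines in the same order as Rpl39l (rho = 1.0), and r was 0.96 without FB2. Its levels lay below the median of all tested clusters, 4.64 to 4.70 per array, in every line but FB2. Such levels do not show that the gene was transcribed. Rtl1 reached r = 0.96 (0.92 without FB2) over a narrower range, with 3.73 in KAA1 and 4.98 in FB2. It too lay below the median of all tested clusters in every line but FB2. Taking 1 cluster per gene, a list drawn up after the values were seen, the next were Snhg11, H1f6, Iqcf1 and Timm8a2 with r of 0.90 to 0.91, then Arl14epl, Glod5, Mir377 and Krtdap with 0.87 to 0.90. Of these, Iqcf1 and Timm8a2 lay below the median of all tested clusters in every line, and Mir377 in every line but FB2. H1f6, a testis linker histone, measured 4.75, 4.88 and 4.92 in the mESCWM lines, 4.39, 4.85 and 4.52 in the mESCKAA lines and 4.46, 5.49 and 4.99 in the mESCFB lines. Arl14epl measured 7.92, 8.88 and 8.19 in the mESCWM lines, 7.34, 7.54 and 7.50 in the mESCKAA lines and 7.36, 9.55 and 8.50 in the mESCFB lines, so that it too was lowest in KAA1 and highest in FB2. The 5 most opposed were Dgat2 (r = -0.93), Olig2 (-0.92), Trnt1 (-0.91), Fam3c (-0.90) and Fxyd3 (-0.89). Dgat2, which makes triacylglycerol, measured 4.56, 4.63 and 4.63 in the mESCWM lines, 5.20, 4.77 and 5.28 in the mESCKAA lines and 5.15, 4.27 and 4.83 in the mESCFB lines. These correlations rest on 9 arrays shared by all genes, among which FB2 is extreme, and they were selected as the highest and lowest of many.

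Transcripts of the 2-cell-like state, in which a few cells of a stem cell culture switch on genes of the early embryo, had in part a high correlation with Rpl39l, to which FB2 contributed. Of 21 genes listed, 9 had a cluster of their own, with a median r of 0.63 with Rpl39l, and 6 of the 9 exceeded 0.5, beside a median of -0.02 and 8.29% of 19937 genes overall. Without FB2, a setting added after the values were seen, the median was 0.40 and 4 of the 9 exceeded 0.5, beside -0.005 and 10.3% of all genes. Over those 8 lines r was 0.73 for Gm5662, 0.71 for AF067061, 0.56 for Tmem92 and 0.52 for Tcstv3, and 0.40 for Pramel6 and 0.32 for Zfp352. Gm5662 (r = 0.86) measured 3.79, 4.45 and 2.95 in the mESCWM lines, 1.98, 1.68 and 1.49 in the mESCKAA lines and 2.18, 5.95 and 2.24 in the mESCFB lines. AF067061 (r = 0.86) measured 4.25, 6.18 and 4.52 in the mESCWM lines, 3.84, 3.98 and 3.59 in the mESCKAA lines and 3.43, 7.55 and 4.28 in the mESCFB lines. Both were highest in FB2 and next in WM2, whereas Rpl39l was next highest in WM3. Tmem92 (0.79), Tcstv3 (0.78), Zfp352 (0.63) and Pramel6 (0.60) were also highest in FB2, apart from Pramel6, whose peak was WM2. Gm5662 and Tcstv3 rose above the median of all tested clusters only in FB2, and Tmem92, Zfp352 and Pramel6 in no line. Dppa3 (-0.14), Eif1a (-0.06) and Spz1 (-0.05) did not follow. Limma called 0 of the 9 in each comparison, with the largest difference for Gm5662, 2.02 in mESCWM minus mESCKAA (SE 0.91, adjusted p = 0.771).

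**Figure D4:**
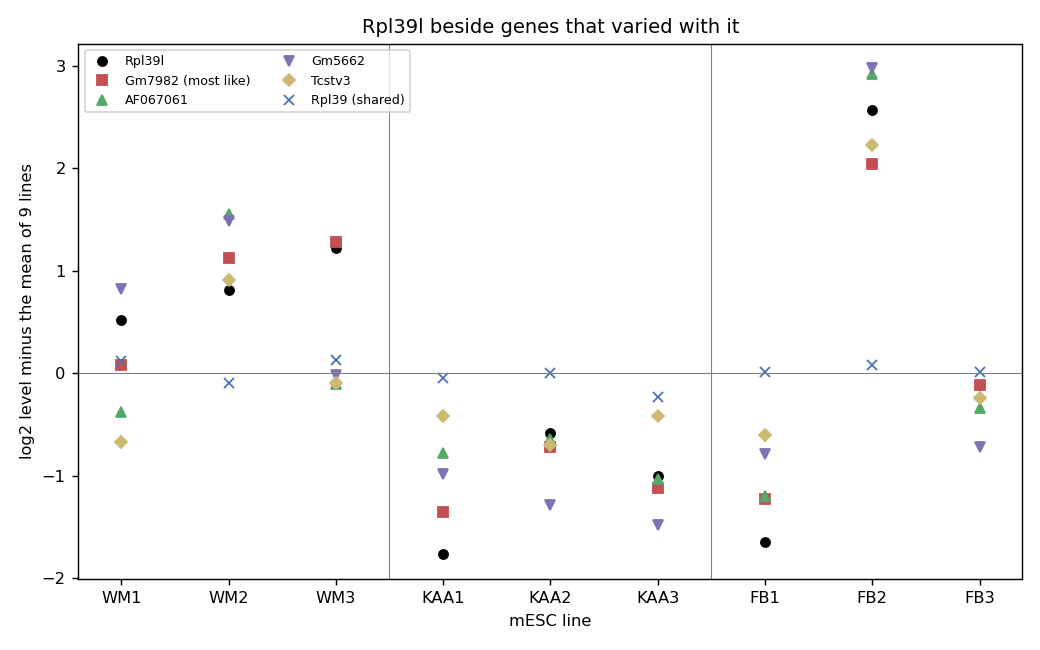
Log2 level minus the mean of the 9 lines for Rpl39l, the closest Gm7982 cluster, the 2-cell-like genes AF067061, Gm5662 and Tcstv3, and Rpl39, by line, with mESCWM, mESCKAA and mESCFB lines separated by vertical rules. Each gene but Rpl39 has its highest value in FB2, and Rpl39 stays close to 0 throughout.

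Genes of meiosis and the germ line were listed because Rpl39l is best known from there. All 18 were measured, with a median r of 0.15, and 3 exceeded 0.5, beside a median of -0.02 and 8.29% of all genes. Hormad1, a protein of the meiotic chromosome axis, had r = 0.74 and measured 5.42, 6.52 and 5.79 in the mESCWM lines, 5.63, 5.44 and 5.36 in the mESCKAA lines and 5.28, 6.45 and 5.59 in the mESCFB lines. Smc1b (0.55) and Dazl (0.51) were the other 2. Rnf17 (-0.72), Ddx4 (-0.57) and Sycp3 (-0.53) ran the other way. Without FB2, a setting added after the values were seen, r was 0.57 for Hormad1, 0.245 for Smc1b and 0.252 for Dazl. The list median was then 0.07, and 2 of the 18, Hormad1 and Mael (0.54), exceeded 0.5, beside 10.3% of all genes. A second Hormad1 cluster, with a lower mean, had r = 0.72 with all lines and 0.40 without FB2. None of the 18 passed limma's test in any comparison.

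By limma, and read by the cluster with the highest mean, the remaining ribosomal protein genes differed little between the groups. The study's own lists, made by rank product, include Rpl29, Rpl21 and Rps2, and any further clusters of these genes are not described here. Of 47 large subunit genes, 33 had a cluster of their own, and 0 were called in either direction in the 3 comparisons. Their median difference was 0.02 in mESCWM minus mESCKAA, -0.02 in mESCKAA minus mESCFB and -0.002 in mESCWM minus mESCFB, beside -0.01, 0.01 and 0.005 over all genes. By sign, 26 of the 33 lay above 0 in mESCWM minus mESCKAA, beside 46.8% of all genes, and 28 lay below 0 in mESCKAA minus mESCFB, beside 46.2%, 2 comparisons that share the mESCKAA lines. In mESCWM minus mESCFB 16 lay above and 17 below. Of 32 small subunit genes, 22 were measured with 0 called and medians of 0.01, -0.02 and -0.01. The median r with Rpl39l was 0.21 over the large and 0.34 over the small subunit genes, higher than the -0.02 of all genes, with Rpl29 the closest at 0.79. Among other paralog pairs, Rps4x, Rps4l, Rps27l and Rpl36a had a cluster of their own and moved by no more than 0.22 in any comparison, the largest being Rps4l, -0.22 in mESCWM minus mESCFB (SE 0.12, limma adjusted p = 0.823). The 24 factors of large subunit assembly were all measured. Of these, 22 lay below 0 in mESCWM minus mESCFB and 22 in mESCKAA minus mESCFB, 2 comparisons that share the mESCFB lines, beside 48.4% and 46.2% of all genes, with medians of -0.11 and -0.08, and 0 were called. Ebna1bp2 and Nip7 had the smallest p in mESCWM minus mESCFB, with differences of -0.36 (SE 0.12) and -0.33 (SE 0.12) and an adjusted p of 0.819 each by limma. In mESCWM minus mESCKAA, 14 of the 24 lay below 0, beside 53.1% of all genes, with a median of -0.04.

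**Figure D5:**
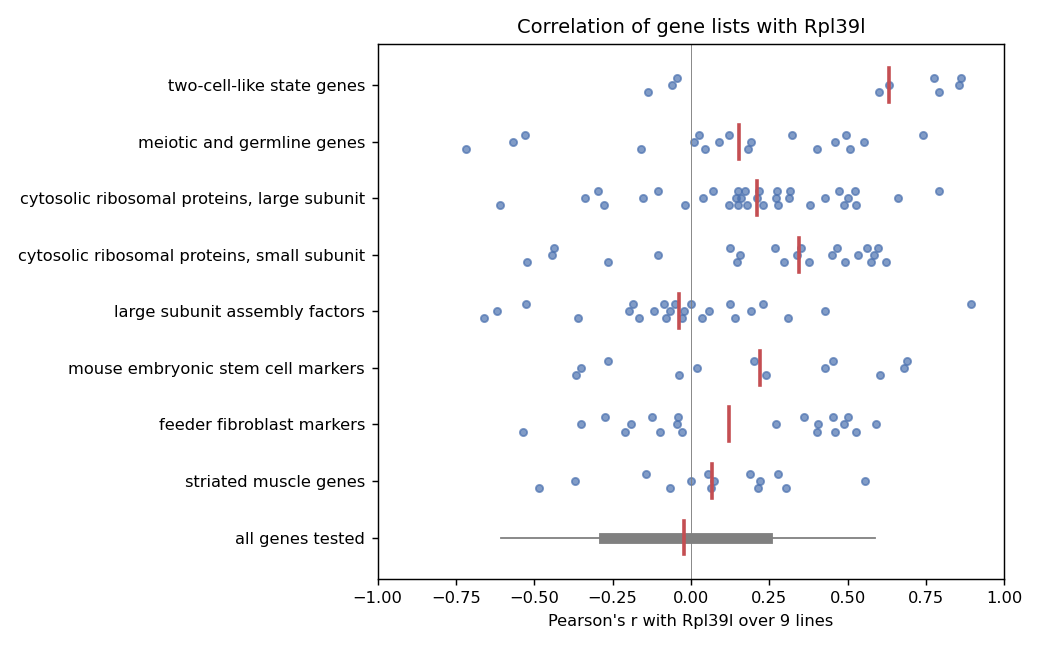
Pearson's r of each listed gene with Rpl39l over the 9 lines, 1 point per gene, with red ticks at list medians. For all genes tested the thin bar spans the 5th to 95th percentile (-0.61 to 0.59) and the thick bar the 25th to 75th. The 2-cell-like genes have the highest list median, 0.63, with 3 of the 9 near 0.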

How the data were processed

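RNA of 9 mESC lines was read on Affymetrix Mouse Gene ST arrays, 1 array per line and 3 lines per group. The deposited log2 values were made by the authors with RMA (background correction, quantile normalization between arrays and a summary over the probes of each cluster), using Affymetrix Expression Console and R 3.1.0. No background flags were used, and the number of arrays limits the precision. Groups and line numbers came from the sample titles. Of 35556 clusters, 12146 without an annotated gene were left out of the tests, and 21789 of the 23410 others carry 1 symbol, 21698 of them matched to RefSeq.

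Differences were fitted over all clusters and lines by lmFit and eBayes of limma 3.58.1 under R 4.3.3 (two-sided, Benjamini-Hochberg). The rank product, for which the methods give no threshold, was written in Python 3.11.15 with numpy 2.4.6, 100 permutations of each array, and calls at under 0.05 false positives per call. Paralog minus parent differences and correlations were tested by exact permutation. A gene with several clusters was represented by the mean of its clusters in the pair comparisons, and by the cluster with the highest mean in the gene lists. Both tests were checked on simulated data. Members and gene lists were chosen with earlier results of these data known. By this rule the text could name all members, the 10 most and 5 least alike clusters to Rpl39l among those with a range of at least 1, up to 3 genes per list and comparison with the smallest p, the Y-linked genes and the other paralogs. Genes named beyond this rule were chosen after their values were seen, namely the members of a list given with their correlation and the list of 1 cluster per gene. Same-numbered lines correlated between -0.013 and 0.328 in their deviations from the group means, with 5 of 9 pairs above 0.1. Other pairs ran from -0.242 to 0.132, and 8 of 9 lines correlated best with a line of their own number. The sample titles give only the number, so it served as a block only in an alternative. The exact tests took the lines as independent, and a dependence between same-numbered lines was not tested. Alternatives were other cluster sets, quantile normalization, median centring, a replicate block, robust eBayes with statmod 1.5.0, another threshold, and leaving out lines, of which FB2 in the gene list correlations was added after the data were seen. Promoter sequences were read from RefSeq (GRCm38.p6).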

Additional observations from a re-analysis of the deposited data

How the results depend on the processing

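Limma called 0 of the 15 member clusters under every alternative, the replicate block and each left-out line included. The replicate block also left the rank product at 1, 0 and 1 member clusters in mESCKAA minus mESCFB, mESCWM minus mESCFB and mESCWM minus mESCKAA, with 33, 29 and 74 clusters called in all. In the rank product, the count for mESCKAA minus mESCFB was 0 with all transcript clusters and 0 in the upper part of the clusters by mean level (from the median up), and 0 to 1 when a line was left out. For mESCWM minus mESCFB it was 0 to 1, the 1 arising without FB2, and for mESCWM minus mESCKAA it was 1 throughout. The Rpl39l difference of mESCWM from mESCFB ran from -0.38 to 1.73 when a line was left out, the lower without FB1 and the higher without FB2, and was -0.56 without the 3 lines with Eif2s3y signal. Its difference from Rpl39 in that comparison ran from -0.38 to 1.69 and was -0.53 without those 3 lines. The Rpl39l difference of mESCKAA from mESCFB kept its sign, from -2.35 without FB1 to -0.24 without FB2, with -2.62 without those 3 lines, and that of mESCWM from mESCKAA did so from 1.65 to 2.24.

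Differences between paralog and parent that were small also changed sign. Rpl22l1 minus Rpl22 ran from -0.03 to 0.07 in mESCKAA minus mESCFB, with -0.02 after quantile normalization, and from -0.02 to 0.06 in mESCWM minus mESCKAA. Rpl10l minus Rpl10 ran from -0.14 to 0.14 in mESCWM minus mESCKAA. Rpl3l minus Rpl3 ran from -0.10 to 0.06 in mESCKAA minus mESCFB, from -0.06 to 0.22 in mESCWM minus mESCFB, with -0.13 without the 3 lines with Eif2s3y signal, and from -0.03 to 0.25 in mESCWM minus mESCKAA. The correlation ran from -0.23 to 0.18 for Rpl3l and Rpl3, and from -0.58 without WM2 to 0.51 without WM1 for Rpl7l1 and Rpl7. The causes were not tested. With 3 lines per group, the exact test cannot go below p = 0.1. Of the lines, 8 of 9 correlated best with a line of their own number, which is a hint from the data and not from the design.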
